A study of Mus musculus with 4 samples.

Results

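STAT5, the PIM kinases and the SOCS genes form a signalling circuit of blood cell growth. The members were given by name: the transcription factor genes Stat5a and Stat5b, the kinase genes Pim1, Pim2 and Pim3, the feedback genes Cish, Socs1, Socs2 and Socs3, and the receptor gene Il2ra. All 10 have a row among the 23240 genes of the table. All 10 passed the filter on low values (a mean of at least 1 RPKM) that left 9595 genes for testing. Il2ra passed it only through its 4OHT libraries. RPKM is a read count scaled to gene length and to the reads mapped in the library, so levels can be compared between genes.

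RNA was sequenced from sorted blasts of leukaemic mice, taken from bone marrow and described as GFP+, BFP+, CD11b- and Gr1-. The labels give the cell type as RUNX1-FLT3ITD_AML, where ITD is the repeat within the FLT3 receptor that makes it signal without its ligand. The 4OHT cells were cultured for 22 h with 200 nM 4OHT (4-hydroxytamoxifen), and the EtOH cells for 22 h with an equal volume of its solvent, ethanol. All cultures held the cytokines FLT3L, SCF, IL3 and IL11 in SFEM medium. Both treatments were applied to Runx1 delta/delta cells (replicate 1) and to Runx1 delta/+ cells (replicate 2), both labelled B6, which gives 4 libraries and 1 library for each genotype and treatment. Genotype, replicate number and any difference between mice or cultures cannot be told apart, and the labels name neither the mice behind each culture, nor their age, nor the protein that 4OHT acts on.

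IL3 and mutated FLT3 signal to STAT5 through receptor-bound JAK kinases or through the FLT3 kinase itself. Phosphorylated STAT5 dimers enter the nucleus, bind the palindrome TTCNNNGAA and switch on genes that include Cish, Pim1, Socs2 and Il2ra. The PIM proteins are serine/threonine kinases that promote survival and translation and are active as soon as they are made. CIS and the SOCS proteins close the circuit by blocking receptors or JAKs and by recruiting a ubiquitin ligase.

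Depth and cell identity were checked first. The 2 4OHT libraries held 36.7 and 39.4 M mapped reads, read back from the steps of the RPKM values, and the 2 EtOH libraries 34.6 and 33.7 M. Runx1 stood at 380 and 328 RPKM in 4OHT, against 568 and 555 RPKM in EtOH; 1 value per gene does not resolve exons, so this does not check the genotype labels. Itgam, the gene of CD11b, reached at most 0.358 RPKM. Markers of B cells summed to between 0.321 and 0.878 RPKM (Ms4a1, Pax5 and Ebf1 were at 0 in all 4 libraries), and those of T and NK cells to between 0.613 and 2.69 RPKM, with Cd3e at 0. The 13 neutrophil and monocyte markers in the table summed to 55.3 and 22.6 RPKM in 4OHT and to 49.3 and 20.1 RPKM in EtOH. The 20 erythroid markers in the table summed to 5710 and 4001 RPKM in 4OHT, against 66360 and 36050 RPKM in EtOH, and 19 of them fell. Of 7 megakaryocyte markers tested, 1 rose and 5 fell. Among all genes tested, 22.2% rose and 10.2% fell. The megakaryocyte list summed to 109 and 88.1 RPKM in 4OHT, against 184 and 225 RPKM in EtOH. Some of these markers passed the filter on low values through a single treatment, such as Itgb3 through 4OHT and Gp9 and Trfr2 through EtOH. In bulk libraries fewer cells of a type and less RNA per cell cannot be told apart, and the part of these erythroid transcripts in the results that follow was not tested.

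The comparison of 4OHT with EtOH asks how the circuit changed within 22 h of 4OHT. Of the 10 members, 4 rose (Stat5a, Pim2, Pim3 and Il2ra) and 2 fell (Pim1 and Cish) at a limma adjusted p under 0.05. Among all 9595 genes tested, 32.4% were called, 22.2% higher and 10.2% lower. The 10 members had a median of 0.70 on the log2 scale, and the 9595 genes one of 0.16. Both 4OHT libraries lay above both EtOH libraries for 5 members and 38.4% of all genes, and below them for 2 members and 16.9%. Without genotype in the model (no replicate block) 1 of the 6 calls was left, that of Pim1 (limma adjusted p = 0.0356). Each library left out in turn left between 0 and 2 calls, in fits that had to leave out genotype too, so that the genotype difference enters those values. All 6 calls held after median-ratio scaling and after rescaling to the total without globin genes.

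**Figure D1:**
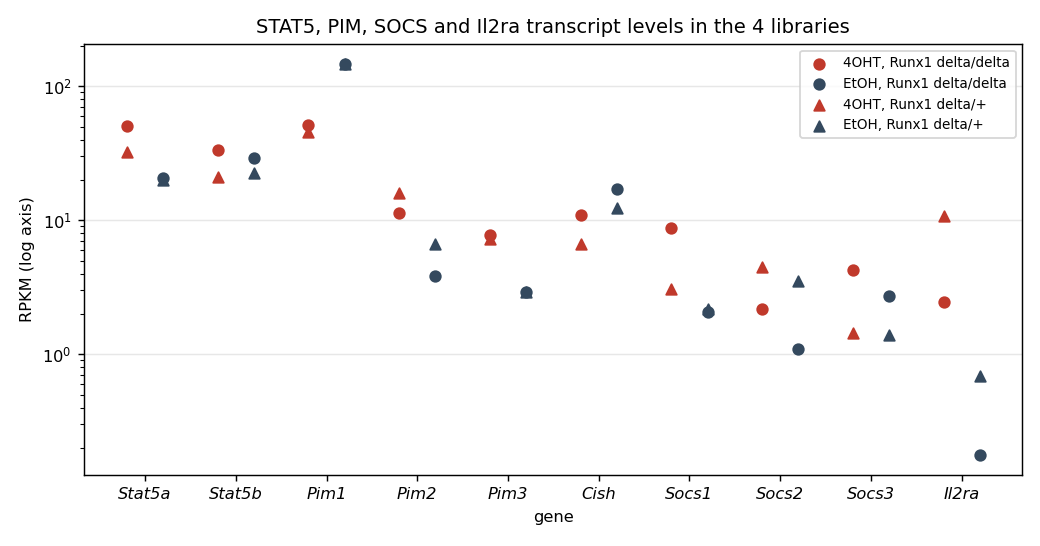
Level of each member in RPKM (log axis) in the 4 libraries. Red points are 4OHT and dark points EtOH; circles are Runx1 delta/delta and triangles Runx1 delta/+. Pim1 is the highest member in every library, and the 4OHT points lie above both EtOH points for Stat5a, Pim2, Pim3, Socs1 and Il2ra and below both for Pim1 and Cish.

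Of the transcription factors, Stat5a rose and Stat5b was not called. Stat5a stood at 50.3 and 32.3 RPKM in 4OHT of Runx1 delta/delta and Runx1 delta/+, against 20.7 and 20.0 RPKM in EtOH. Both 4OHT libraries were above both EtOH libraries, and the rise was larger in Runx1 delta/delta (2.44-fold) than in Runx1 delta/+ (1.62-fold), a difference that could not be tested with 1 library of each kind. The log2 change of RPKM + 1, the scale of every log2 change given here, was 0.96 (SE 0.18, limma adjusted p = 0.0162); it understates the change of low genes. Stat5b stood at 33.7 and 20.9 RPKM in 4OHT and at 29.4 and 22.5 RPKM in EtOH. The groups overlapped, and the log2 change was 0.04 (SE 0.15, limma adjusted p = 0.836), -0.15 with median-ratio scaling and -0.09 with the total without globin genes.

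The order of the 2 STAT5 genes therefore differed between the treatments. Stat5a made up 59.9% and 60.8% of the summed STAT5 RPKM in 4OHT, against 41.3% and 47.1% in EtOH. The ratio of Stat5a to Stat5b was 1.49 and 1.55 in 4OHT, and 0.704 and 0.889 in EtOH. A ratio within a library does not depend on the scaling between libraries, but it shows unequal change only. The genes are close relatives: 8.21% of the 50-base words in annotated Stat5a transcripts also occur in Stat5b transcripts, and 11% the other way, so reads from those stretches could be split between them. These values rested on 7189 and 4950 reads of Stat5a in 4OHT and on 2780 and 2615 in EtOH.

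The PIM kinases moved in opposite directions. Pim1, first found as a gene activated by retrovirus insertion in mouse lymphomas, stood at 51.8 and 45.6 RPKM in 4OHT, against 148 and 148 RPKM in EtOH. The 2 EtOH libraries were nearly alike and both 4OHT libraries lay far below them, with a level 2.85-fold lower in Runx1 delta/delta and 3.24-fold lower in Runx1 delta/+. The log2 change was -1.58 (SE 0.13, limma adjusted p = 0.00317). Without 1 library the change lay between -1.67 and -1.49, and the call was lost without EtOH replicate 1 (limma adjusted p = 0.125), EtOH replicate 2 (0.0614) or 4OHT replicate 2 (0.0557), each fitted without genotype.

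Pim2, a kinase of survival and translation in blood cells, had 11.4 and 16.0 RPKM in 4OHT, against 3.85 and 6.70 RPKM in EtOH. It rose by 2.95-fold in Runx1 delta/delta and by 2.38-fold in Runx1 delta/+, and its log2 change was 1.25 (SE 0.15, limma adjusted p = 0.00586). Pim3 had 7.80 and 7.21 RPKM in 4OHT, against 2.92 and 2.89 RPKM in EtOH, and its log2 change was 1.12 (SE 0.15, limma adjusted p = 0.00692). Neither gene's groups overlapped, and the ratio of Pim2 to Pim3 was close within each genotype, 1.46 in 4OHT and 1.32 in EtOH of Runx1 delta/delta, and 2.22 and 2.32 in Runx1 delta/+. No 50-base word of the annotated transcripts was shared between the PIM genes (0 of 3404 words of Pim1 with either other gene).

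Summed over the family, PIM transcripts were lower in 4OHT, at 71.0 and 68.8 RPKM, against 154 and 157 RPKM in EtOH. Pim1 made up 73.0% and 66.3% of that sum in 4OHT, against 95.6% and 93.9% in EtOH. Pim2 held 16.0% and 23.2% in 4OHT, against 2.50% and 4.26% in EtOH. The gains of Pim2 and Pim3 in RPKM were smaller than the loss of Pim1. Among all genes tested, Pim1 lay above 83.7% and 82.5% of the genes in 4OHT and above 95.4% and 95.9% in EtOH.

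**Figure D2:**
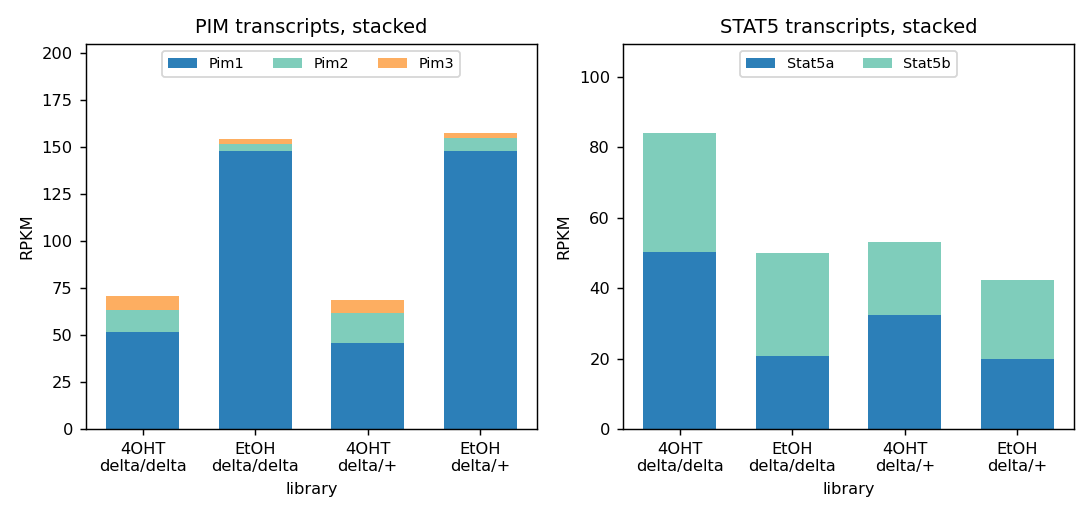
Stacked RPKM of the PIM genes (left) and STAT5 genes (right) in each library, with 4OHT left of EtOH in each genotype. Pim1 fills most of the PIM bars, which are shorter in 4OHT (71.0 and 68.8 RPKM) than in EtOH (154 and 157 RPKM), while the Stat5a part of the STAT5 bars is larger in 4OHT.

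Of the feedback genes Cish fell, and none of the SOCS genes passed the test. Cish encodes CIS, which binds phosphorylated cytokine receptors where STAT5 would dock, and is a classical direct STAT5 target. It stood at 10.9 and 6.63 RPKM in 4OHT, against 17.0 and 12.4 RPKM in EtOH, so both 4OHT libraries were below both EtOH libraries. The log2 change was -0.71 (SE 0.14, limma adjusted p = 0.0192), and the call was lost with no filter on low values (limma adjusted p = 0.0506). Of the 10 members Pim1 and Cish alone were called lower, in the libraries whose erythroid transcripts were lower too. In the same libraries 4 members were called higher, and the part of erythroid cells in these changes was not tested. Pim1 and Cish are known STAT5 targets, and so is Il2ra, which rose. The part of STAT5 activity in these changes was not tested.

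The window from 250 bases before to 50 after the annotated start was searched for the STAT palindrome in RefSeq promoters (GRCm38.p6; the deposited values were made on mm9). Of the members, 9 had an entry, with 12 windows in all; Socs2 had none. TTCNNNGAA, which reads the same on both strands, occurred in 2 of the 12 windows, against 8.3% of all 32851 promoters. The Cish window held 2 matches in tandem, as 0.457% of all promoters do (2 or more matches). The 30 bases around the matches are shown, with each match to the pattern that STAT5 is known to bind in capitals. Binding of STAT5 to these stretches was not tested.
Cish: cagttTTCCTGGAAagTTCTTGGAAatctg
Socs3: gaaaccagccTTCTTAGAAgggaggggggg
The Cish stretch is chr9:107296654-107296683 on the plus strand and runs from base -5 to base 25 about the start. The Socs3 stretch is chr11:117969501-117969530 on the minus strand, from base -164 to base -135. A match is a description of the sequence: Cish fell and Socs3 was not called, and windows with no match include those of Pim1 and Il2ra. The RUNX core TGTGGT, searched on both strands, occurred in 1 of the 12 windows, a Stat5a one, against 16.8% of all promoters.

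Socs1, an inhibitor of JAK kinases that interferon also induces, stood at 8.82 and 3.08 RPKM in 4OHT, against 2.06 and 2.19 RPKM in EtOH. Both 4OHT libraries were above both EtOH libraries, by 4.28-fold in Runx1 delta/delta and 1.41-fold in Runx1 delta/+. The log2 change was 1.02 (SE 0.32) and missed the threshold (limma adjusted p = 0.0639), passing it only with the total without globin genes (limma adjusted p = 0.0408) among the alternatives tried. Socs2, which limits growth hormone and cytokine signalling, had 2.19 and 4.49 RPKM in 4OHT and 1.09 and 3.53 RPKM in EtOH (log2 change 0.44, SE 0.18, limma adjusted p = 0.111). Socs3, the main inhibitor of signalling through gp130, had 4.25 and 1.44 RPKM in 4OHT and 2.71 and 1.39 RPKM in EtOH (log2 change 0.27, SE 0.19, limma adjusted p = 0.337). For Socs2 and Socs3 the groups overlapped. Both were low, resting on 102 to 477 reads for Socs2 and 128 to 425 for Socs3.

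Within the feedback genes the leading transcript was Cish in every library, but by a smaller margin with 4OHT. Cish made up 41.7% and 42.4% of the summed RPKM of the 4 genes in 4OHT, against 74.4% and 63.6% in EtOH. Socs1 made up 33.7% and 19.7% in 4OHT, against 9.01% and 11.2% in EtOH. The sums themselves overlapped, at 26.2 and 15.7 RPKM in 4OHT and 22.9 and 19.6 RPKM in EtOH.

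Il2ra had the largest change of the 10 members. It encodes CD25, the alpha chain of the IL2 receptor, which is a STAT5 target in lymphoid cells and is also found on some leukaemic blasts. It stood at 2.44 and 10.8 RPKM in 4OHT, against 0.176 and 0.683 RPKM in EtOH, and both 4OHT libraries were above both EtOH libraries. Its EtOH values lay below 1 RPKM, so the gene entered the test only through the 4OHT libraries, where it is high. With no filter on low values it was called too (limma adjusted p = 0.0319). In reads this was 397 and 1891 in 4OHT, against 27 and 102 in EtOH, a rise of 13.8-fold and 15.9-fold in RPKM. The log2 change was 2.18 (SE 0.32, limma adjusted p = 0.00872) and 3.50 with a pseudocount of 0.1. Without 4OHT replicate 2 it was 1.29 and not called (limma adjusted p = 0.235), without EtOH replicate 1 it was 1.92 (0.349) and without EtOH replicate 2 it was 2.44 (0.143), all in fits without genotype.

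Of the partner chains of CD25, one was too low to test and the other fell. Il2rb, the beta chain that signals for IL2, was at 0.182 and 0.264 RPKM in 4OHT and at 0.0429 and 0.066 RPKM in EtOH. Both 4OHT libraries were above both EtOH libraries, as for Il2ra, but the gene was below the filter and was not tested. Il2rg, the shared gamma chain, fell to 40.4 and 37.7 RPKM in 4OHT, against 60.9 and 97.0 RPKM in EtOH (log2 change -0.96, SE 0.21, limma adjusted p = 0.0233). The T cell gene Foxp3 reached at most 0.0736 RPKM. Of the 12 mast cell, basophil and eosinophil markers, 8 were tested, 3 of them rose (Cpa3, Ms4a2 and Prss34) and 0 were called lower. Of all genes tested, 22.2% were called higher and 10.2% lower. Ms4a2, of the IgE receptor, had 14.2 and 4.60 RPKM in 4OHT, against 0.859 and 1.09 RPKM in EtOH. It passed the filter on low values only through its 4OHT libraries. Other genes of the list went the other way without a call. Gata2 had 145 and 63.5 RPKM in 4OHT, against 180 and 182 RPKM in EtOH. Hdc had 33.7 and 37.0 RPKM, against 42.3 and 74.0 RPKM. Fcer1a was higher with 4OHT in Runx1 delta/delta (20.1 against 1.69 RPKM) and lower in Runx1 delta/+ (2.80 against 4.45 RPKM). The list summed to 324 and 129 RPKM in 4OHT and to 235 and 272 RPKM in EtOH. The part of such cells in the Il2ra rise was not tested.

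**Figure D3:**
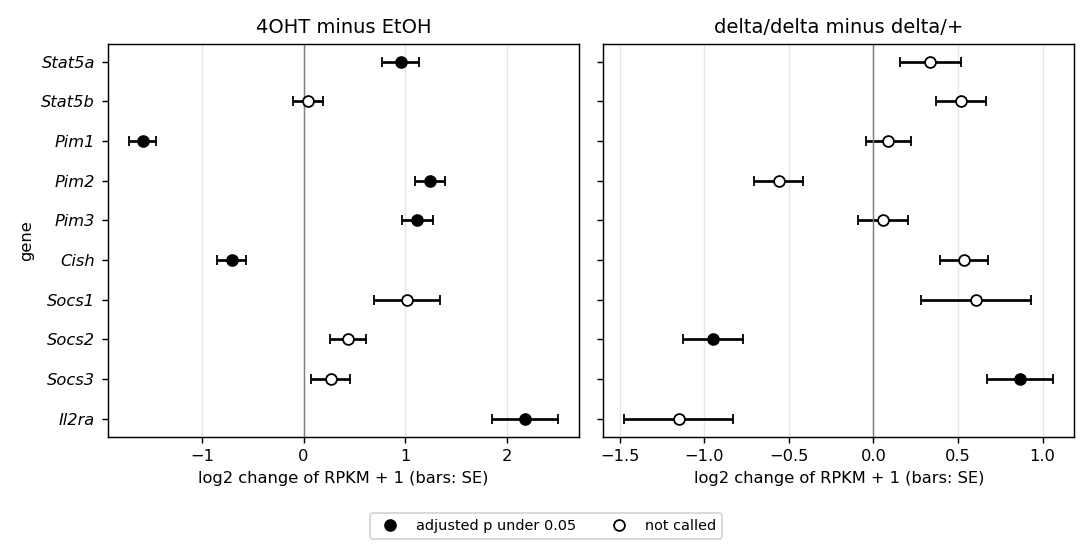
Log2 change of RPKM + 1 for each member, 4OHT minus EtOH on the left and Runx1 delta/delta minus Runx1 delta/+ on the right, with SE bars and filled points for an adjusted p under 0.05. With 4OHT Il2ra lies farthest to the right (2.18) and Pim1 farthest to the left (-1.58); between genotypes the filled points are Socs2 (-0.95) and Socs3 (0.87).

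Levels ran in a similar order in all libraries. Pim1 had rank 1 of the 10 in each. Stat5a had rank 2 and Stat5b rank 3 in both 4OHT libraries, and the reverse in both EtOH libraries, where the pair differed less in Runx1 delta/+ (20.0 and 22.5 RPKM) than in Runx1 delta/delta (20.7 and 29.4 RPKM). Cish had ranks 5 and 7 in 4OHT, against rank 4 in both EtOH libraries. Il2ra had ranks 9 and 5 in 4OHT, against rank 10 in both EtOH libraries. Among Socs1, Socs2 and Socs3, Socs2 was the lowest in both Runx1 delta/delta libraries and the highest in both Runx1 delta/+ libraries, where Socs3 was the lowest.

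The comparison of Runx1 delta/delta with Runx1 delta/+ sets the genotypes side by side within each treatment. Of the 10 members, Socs3 was higher and Socs2 lower in Runx1 delta/delta. Of all 9595 genes, 11.6% were called, 4.68% higher and 6.91% lower. Cell type markers differed as well. All 3 neutrophil and monocyte markers tested were called higher in Runx1 delta/delta. Of 20 erythroid markers 7 were called higher and 1 lower, and of 7 megakaryocyte markers 0 and 1. The part of the cell mixture in the genotype differences was not tested. Socs3 stood at 4.25 RPKM in 4OHT and 2.71 RPKM in EtOH of Runx1 delta/delta, against 1.44 and 1.39 RPKM in Runx1 delta/+. Both Runx1 delta/delta libraries were above both Runx1 delta/+ libraries (a difference of 0.87 on the log2 scale, SE 0.19, limma adjusted p = 0.0495), at the edge of the threshold. Socs2 had 2.19 RPKM in 4OHT and 1.09 RPKM in EtOH of Runx1 delta/delta, against 4.49 and 3.53 RPKM in Runx1 delta/+, with no overlap (a difference of -0.95 on the log2 scale, SE 0.18, limma adjusted p = 0.0356). Both calls were lost without treatment in the model (limma adjusted p = 0.528 for Socs3 and 0.53 for Socs2) and with no filter on low values (0.125 and 0.102). The call of Socs3 was also lost with pseudocounts of 0.1 and 0.5 and with median-ratio scaling (limma adjusted p = 0.0536, 0.054 and 0.052), and of the alternatives with a test it held with the total without globin genes alone (0.0206). The call of Socs2 held with both pseudocounts and both scalings.

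Il2ra, Pim2 and Cish came near the threshold between genotypes. Il2ra was lower in Runx1 delta/delta by 4.44-fold in 4OHT and 3.88-fold in EtOH, but 4OHT cells of Runx1 delta/delta lay above EtOH cells of Runx1 delta/+, so the genotypes overlapped (log2 difference -1.15, SE 0.32, limma adjusted p = 0.0759). Pim2 had a log2 change of -0.56 (SE 0.15, limma adjusted p = 0.0649), and Cish one of 0.53 (SE 0.14, limma adjusted p = 0.0706). With the total without globin genes Il2ra and Cish were called (limma adjusted p = 0.0313 and 0.0401), but Pim2 was not (0.0554). With a pseudocount of 0.1 Il2ra was called as well (limma adjusted p = 0.0376). The other alternatives called none of these genes. Pim1 and Pim3 had differences of 0.09 and 0.05, with SEs of 0.13 and 0.15 (limma adjusted p = 0.671 and 0.82). Stat5b, with 33.7 and 29.4 RPKM in Runx1 delta/delta against 20.9 and 22.5 RPKM in Runx1 delta/+, did not overlap between genotypes. It was not called in the main fit (log2 change 0.52, SE 0.15, limma adjusted p = 0.0784), but was with the total without globin genes. Stat5a was not called in the main fit (log2 difference 0.34, SE 0.18, limma adjusted p = 0.259). Both Runx1 delta/delta libraries were above both Runx1 delta/+ libraries for 17% of all genes and below them for 21.4%; of the members this held for 2 and 1.

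The other genes of the pathway, 68 in 6 lists, showed how the circuit stood around the members. Of 58 tested, 11 rose and 10 fell with 4OHT, where 22.2% of all genes tested were called higher and 10.2% lower. The median of the 58 was 0.15 on the log2 scale, close to the 0.16 of all genes tested. With median-ratio scaling 7 rose and 14 fell, and with the total without globin genes 9 rose and 14 fell, so the split depends on the scaling, which moved the median of all genes to -0.02 and 0.04. Without genotype in the model 1 gene was called, Csf2rb2 (limma adjusted p = 0.0341). Il2rb, Jak1, Il6st, Bcl2, Eif4ebp1, Bcl2l1, Mcl1, Myc, Rnf7 and Podxl are named after their values were seen.

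Of 11 receptor and JAK genes tested, 2 rose and 4 fell (of all genes tested, 22.2% and 10.2%). Il3ra, the IL3-binding alpha chain, had 10.3 and 8.17 RPKM in 4OHT, against 3.24 and 3.38 RPKM in EtOH (log2 change 1.24, SE 0.16, limma adjusted p = 0.0068). Its signalling partner fell: Csf2rb, the shared beta chain, had 112 and 169 RPKM in 4OHT, against 236 and 235 RPKM in EtOH (log2 change -0.77, limma adjusted p = 0.0258). Csf2rb2, the beta chain of mice that serves IL3 alone, had 37.2 and 50.8 RPKM in 4OHT, against 192 and 184 RPKM in EtOH (log2 change -2.09, SE 0.17, limma adjusted p = 0.00291). Csf2rb and Csf2rb2 are near copies, so reads could be split between them. The ligand-binding and the signalling chains of the IL3 receptor thus moved in opposite directions.

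Epor, the erythropoietin receptor gene, which also signals to STAT5, had 10.8 and 9.60 RPKM in 4OHT, against 27.9 and 16.6 RPKM in EtOH (log2 change -1.01, limma adjusted p = 0.0142). It is an erythroid marker too and fell with that list. Flt3 had 16.8 and 39.7 RPKM in 4OHT and 12.6 and 46.3 RPKM in EtOH, with no call (log2 change 0.08, SE 0.19, limma adjusted p = 0.752, and -0.11 with median-ratio scaling). Jak2 had 15.0 and 21.3 RPKM in 4OHT and 21.4 and 28.8 RPKM in EtOH (log2 change -0.45, limma adjusted p = 0.055), and was called lower with median-ratio scaling (limma adjusted p = 0.0276). Jak1 was called higher (log2 change 0.51, limma adjusted p = 0.0456), but not with median-ratio scaling (limma adjusted p = 0.172).

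**Figure D4:**
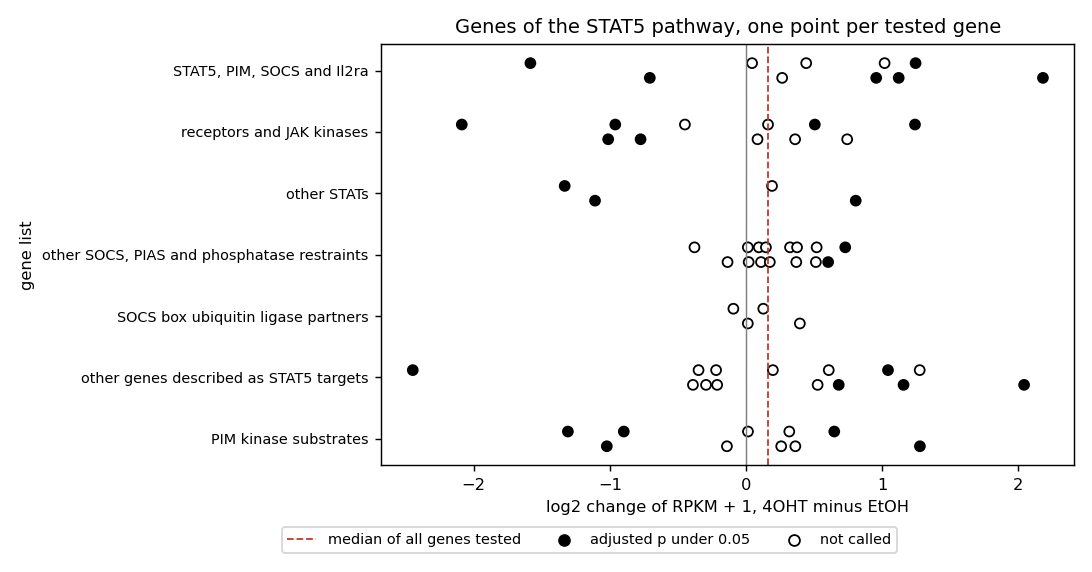
Log2 change of RPKM + 1, 4OHT minus EtOH, for the members (top) and each tested gene of the pathway lists, with filled points for an adjusted p under 0.05 and a dashed line at the median of all genes (0.16). Called genes lie on both sides of the line in the receptor, STAT, target and PIM substrate lists.

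Of 4 other STAT genes tested, 1 rose and 2 fell (of all genes tested, 22.2% and 10.2%). Stat3, the main effector of IL11 through gp130, had 35.6 and 34.4 RPKM in 4OHT, against 18.8 and 20.4 RPKM in EtOH (log2 change 0.81, SE 0.14, limma adjusted p = 0.0128). Il6st, the gene of gp130, had only 0.110 and 0.163 RPKM in 4OHT and 0.0636 and 0.125 RPKM in EtOH. It was below the filter and was not tested. Stat2, a factor of the type I interferon response, had 18.7 and 17.8 RPKM in 4OHT, against 49.1 and 33.5 RPKM in EtOH (log2 change -1.11, SE 0.17, limma adjusted p = 0.00936). Of 15 other SOCS, PIAS, phosphatase and adaptor genes that restrain the pathway, 2 rose and 0 fell, where 32.4% of all genes were called (Ptprc, the CD45 phosphatase, by 0.73, and the ubiquitin ligase gene Cbl by 0.60 on the log2 scale), and neither was called with median-ratio scaling. The direction of this list depends on the scaling: 0 were higher and 1 lower with median-ratio scaling, and 1 higher and 1 lower with the total without globin genes. Of the 4 genes for the ubiquitin ligase that SOCS boxes bind, 0 were called by limma and 1 had an unadjusted p under 0.05 (Rnf7, log2 change 0.40).

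Of 14 further genes described as STAT5 targets, 4 rose and 1 fell (of all genes tested, 22.2% and 10.2%). Osm, the cytokine oncostatin M, had 50.1 and 20.9 RPKM in 4OHT, against 5.76 and 8.74 RPKM in EtOH (log2 change 2.04, SE 0.40, limma adjusted p = 0.0174). Ccnd2, the cyclin D2 gene, had 71.0 and 67.3 RPKM in 4OHT, against 44.2 and 41.4 RPKM in EtOH (log2 change 0.68, limma adjusted p = 0.0163). Xbp1, a factor of the unfolded protein response, had a log2 change of 1.04 (limma adjusted p = 0.0204). Bcl2, a survival gene, was low, with 2.41 and 1.32 RPKM in 4OHT, against 0.209 and 0.314 RPKM in EtOH (log2 change 1.16, limma adjusted p = 0.0205). Tgm2, transglutaminase 2, fell to 0.0997 and 0.0357 RPKM in 4OHT, against 7.17 and 3.15 RPKM in EtOH (log2 change -2.45, limma adjusted p = 0.00498). Bcl2 passed the filter on low values only through its 4OHT libraries, and Tgm2 only through its EtOH libraries.

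Other well known survival and growth targets were not called. Bcl2l1, the BCL-XL gene, had 57.7 and 53.5 RPKM in 4OHT and 81.4 and 51.6 RPKM in EtOH. Mcl1 had 71.0 and 56.4 RPKM in 4OHT and 86.7 and 75.4 RPKM in EtOH (log2 change -0.35, limma adjusted p = 0.095), and was called lower with median-ratio scaling (limma adjusted p = 0.0334). Myc had 196 and 103 RPKM in 4OHT and 104 and 83.7 RPKM in EtOH (log2 change 0.61, limma adjusted p = 0.0537).

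Of the 10 genes for PIM substrates, 2 rose and 3 fell (of all genes tested, 22.2% and 10.2%). Foxo3, a transcription factor of quiescence and death genes, had 39.7 and 25.6 RPKM in 4OHT, against 104 and 62.2 RPKM in EtOH (log2 change -1.31, SE 0.13, limma adjusted p = 0.00446). Cdkn1b, the cell cycle inhibitor p27, had 20.9 and 18.6 RPKM in 4OHT, against 45.0 and 37.3 RPKM in EtOH (log2 change -1.02, limma adjusted p = 0.00694). Eif4ebp1, an inhibitor of cap-dependent translation, had 18.6 and 14.3 RPKM in 4OHT, against 27.2 and 35.9 RPKM in EtOH (log2 change -0.90, limma adjusted p = 0.0284). Map3k5, the stress kinase ASK1, rose by 1.28 (limma adjusted p = 0.00587), and Eif4b, a translation factor, rose by 0.65 (limma adjusted p = 0.0188; 0.0562 with median-ratio scaling).

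Between genotypes, 3 of the 58 pathway genes were higher and 2 lower in Runx1 delta/delta. Among all 9595 genes tested, 11.6% were called, 4.68% higher and 6.91% lower. Flt3 had 16.8 RPKM in 4OHT and 12.6 RPKM in EtOH of Runx1 delta/delta, against 39.7 and 46.3 RPKM in Runx1 delta/+. That is a difference of -1.49 on the log2 scale (SE 0.19, limma adjusted p = 0.0204). A single value per gene cannot tell reads of mutated FLT3 from those of the normal gene. Ptprc was lower as well (log2 change -1.13, limma adjusted p = 0.0269). Podxl and Foxo3 were among those higher, with log2 differences of 1.27 and 0.67 (limma adjusted p = 0.0356 and 0.0388). None of these 4 named calls held with no filter on low values or without treatment in the model.

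The authors' deposited table sets a single 4OHT library against a single EtOH library for each replicate number, and there Pim1 passed in both (FDR 2.69e-08 in replicate 1 and 4.58e-10 in replicate 2) and Stat5a in replicate 1 alone (FDR 0.00558, and 1 in replicate 2). The share of all rows that passed was 3.98% in replicate 1 and 1.91% in replicate 2 in the authors' deposited table. Il2ra had folds of 14.8 and 16.4 and FDRs of 1 and 0.099 there.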

How the data were processed

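Whole-transcriptome RNA sequencing of 4 libraries was used. Per the file headers, the authors deposited RPKM for each library and, for Kal's Z-test on each pair of libraries with the same replicate number, a signed fold of proportions (a score here) with raw and FDR-corrected p-values. The build is mm9 per the submitters' processing notes; aligner, annotation and strand use: not given in the sources used here. Per the labels' protocols, either of 2 RNA library kits was used; the kit of each library is unknown here, and its part in any difference was not tested.

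Library totals and whole reads were recovered from the steps of RPKM values; 147 of 627 single-transcript genes shared the chosen total, and member reads were whole within 0.005.

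limma 3.58.1 (R 4.3.3) was fitted on log2(RPKM + 1), leaving out genes that averaged under 1 RPKM, with treatment and genotype as terms, a trended prior, two-sided tests and Benjamini-Hochberg adjustment over 9595 genes at 0.05. Genotype equals the replicate number, which the labels give, and libraries with the same number deviated together (correlation 0.664 across genes). The model leaves 1 residual degree of freedom plus 4.38 from the prior. Nothing says that the libraries came from separate cultures of more than 1 mouse per genotype, so p-values measure only the spread between these samples. Fold changes in words are ratios of RPKM. The members and gene lists were chosen with earlier results of these data known. Named genes are the members, up to 4 called genes with the smallest p per pathway list, and Flt3, Il3ra, Csf2rb and Jak2; others are said to be named after their values were seen. Alternatives were other pseudocounts, filters and scalings, single-term models, each library left out and each pair alone. Some genes of the lists are counted but not reported here by name.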

Additional observations from a re-analysis of the deposited data

Results flagged for a closer look

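Some effects had opposite signs in the 2 genotypes or in the 2 treatments. Each rests on 1 library of each kind, so the difference was not tested. With 4OHT, the log2 change of Stat5b was 0.19 in Runx1 delta/delta cells but -0.10 in Runx1 delta/+ cells. That of Flt3 was 0.39 in Runx1 delta/delta cells but -0.22 in Runx1 delta/+ cells, and that of Bcl2l1 -0.49 in Runx1 delta/delta cells but 0.0505 in Runx1 delta/+ cells. Socs1 was higher by 1.27 on the log2 scale in Runx1 delta/delta when both genotypes had 4OHT, and differed by -0.0585 when both had EtOH. For Pim1 the same differences were 0.18 in 4OHT and -0.0012 in EtOH.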

How the results depend on the processing

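All 6 calls of members with 4OHT held with pseudocounts of 0.1 and 0.5 and with both other scalings; with a mean of at least 5 RPKM, where Il2ra is not tested, and with no filter, where Cish is lost, 5 calls were made. Without the replicate block the calls with 4OHT numbered 233 of all genes, against 3113 with it, 1 of the members and 1 of the pathway genes; with each library left out and 1 term in the model they numbered 3 to 245, 0 to 2 and 0 to 3. Between genotypes, against 1112 genes and 2 members, 646 genes and 0 members were called with a mean of at least 5 RPKM, 1746 and 5 with the total without globin genes, and 0 and 0 with no filter, without the other term, here treatment, and without each library in turn (0 to 0; limma, with 3906, 880 and 169 to 627 genes at an unadjusted p under 0.05). Socs2 and Socs3 are not tested with a mean of at least 5 RPKM, so their calls could not be made there. With a pseudocount of 0.5, and with median-ratio scaling, 1 member was called between genotypes. The median-ratio split of all genes with 4OHT was 1221 higher and 1325 lower, against 2130 and 983; with the total without globin genes it was 1727 and 1440. Some values changed sign. For 4OHT, Stat5b was -0.15 with median-ratio scaling, -0.0915 without globin genes and -0.10 in replicate 2 alone, and Flt3 was -0.11, -0.0493 and -0.22; Bcl2l1 was 0.0505 in replicate 2 alone. Fits that leave out a library also leave out the other term, and assume that a lone library varies like the others; their values then hold part of the other effect by construction, so they do not bear on stability. In them the 4OHT change ranged from -0.29 to 0.38 for Stat5b, -0.11 to 0.999 for Socs2, -0.29 to 0.82 for Socs3, -0.81 to 0.98 for Flt3 and -0.54 to 0.10 for Bcl2l1. The genotype difference in them ranged from -0.75 to 0.93 for Pim1, -1.24 to 0.11 for Pim2, -0.53 to 0.64 for Pim3, -0.29 to 0.96 for Stat5a, -0.24 to 1.44 for Socs1, -2.56 to 0.26 for Il2ra, -0.26 to 0.50 for Runx1 and -0.0102 to 1.36 for Foxo3. Within each treatment, the genotype difference had the sign of the full model for Pim2, Pim3, Stat5a, Il2ra, Runx1 and Foxo3; in EtOH alone it was -0.0012 for Pim1 and -0.0585 for Socs1. The cause of the other changes was not tested. Single pairs gave values only, and counts could not be made from them. The lowest read numbers behind a member were 27 for Il2ra, 87 for Socs1 and 102 for Socs2, and how far depth limits their calls was not tested.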
